A study of Orestias ascotanensis with 42 samples.

Results

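The miR-200 family of epithelial miRNAs was followed through 42 small RNA libraries of the Andean killifish Orestias ascotanensis, made from gills, from skin and from muscle. Its members were taken by name: every mature miRNA called miR-141, miR-200 or miR-429, with any letter and either strand, after the species prefix was removed. The rule gave 17 of the 1342 names in the count tables, from 36 rows with the prefixes of 10 fish species. Of the 17 names, 14 had reads and 3 had 0 reads in all 42 libraries, namely miR-200a-1-5p, miR-200a-3-5p and miR-200c-5p.

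The libraries came from 14 wild adult fish, each giving gills, skin and muscle. There were 7 fish in a summer group, collected in January, and 7 other fish in a winter group, collected in July, with no treatment in either. Season was read from the treatment label, because the titles carry the word summer for every library. Season and collection date cannot be told apart. Each library was a separate sample with no pooling. Within a group each fish has its own batch number, so the spread behind the p-values for levels takes in both. Different fish with the same batch number varied alike, at a median correlation of 0.63 in gills, 0.71 in skin and 0.09 in muscle. Between tissues of the same fish it was 0.16 (gills and skin), 0.08 (gills and muscle) and 0.13 (skin and muscle). The main seasonal fits left the batch number out, and its part in the spread was not tested. Levels were compared between tissues without pairing the tissues of a fish. With fish as a block, no call of a family name between tissues ended. The miR-200a strand ratio was instead compared between tissues within fish. The shallowest libraries were gills summer 4, with 598084 counts over all names, and gills winter 2; leaving both out ended no call of a family name between tissues.

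miR-200 family miRNAs are known from vertebrates as markers and keepers of the epithelial state. They repress the mRNAs of the transcription factors ZEB1 and ZEB2, which themselves repress E-cadherin, the adhesion protein that holds epithelial cells together. The family falls into a pair of groups by seed, the bases that pair with target mRNAs: miR-141 and miR-200a in one, and miR-200b, miR-200c and miR-429 in the other. In zebrafish the family has been found in ionocytes, the salt-transporting cells of the embryonic skin, and tied to their handling of osmotic stress. Each precursor can give a 5p and a 3p strand, and the 3p strand is the abundant one in this family.

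Several names rested on the same reads. miR-141 and miR-200a, both from channel catfish, had identical counts in 42 of 42 libraries, so their levels are given once under miR-141. miR-200b, miR-200b-3p and the Atlantic salmon name miR-200a-3p were likewise identical in 42 of 42 libraries, so the salmon name miR-200a-3p here carries the miR-200b reads. miR-429b and miR-429-3p were also identical in 42 of 42 libraries. That holds for the highest entry of each name: the salmon entry of miR-429-3p instead had the counts of miR-429a in 42 of 42 libraries. Names whose counts matched within 5 percent were treated as 1 read profile, which left 10 profiles among the 14 names with reads. The most abundant was miR-141 with 2127100 reads over all libraries, followed by miR-200b with 266956, miR-200c with 98537, miR-429b with 65376, miR-429a with 47088 and miR-200b-5p with 45841. The other 4 profiles were scarce strands: miR-200a-2-5p with 3911 reads, miR-141-5p with 594, miR-429-5p with 430 and miR-200a-5p with 310. Members that differ by a few bases can take the same reads, so their separate levels are uncertain.

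Every abundant member was highest in gills, lower in skin and lowest in muscle. Levels are CPM, the counts in each 1000000 of a library after TMM scaling, which sets libraries to a common scale from the bulk of the names. Library totals are summed over names, so reads given to several names count more than once. TMM then multiplied the totals by factors from 0.159 (muscle summer 3) to 3.69 (gills winter 3). CPM are thus not shares of the reads. miR-141 had 1821, 3516 and 4670 CPM in gills (lowest, median and highest of 14 libraries), 454, 961 and 1491 in skin, and 17.1, 63.7 and 95.4 in muscle. The 3 tissues did not overlap, and the order gills over skin over muscle held in 14 of 14 fish. With p-values from edgeR's quasi-likelihood fit, adjusted by Benjamini-Hochberg over all 525 names tested, the log2 difference of miR-141 was 1.80 ± 0.20 for gills minus skin (SE; adjusted p = 8.17e-11). It was 5.85 ± 0.23 for gills minus muscle (adjusted p = 1.24e-25) and 4.05 ± 0.21 for skin minus muscle (adjusted p = 1.20e-20). In these bulk tissues, fewer cells of a type and less RNA per cell cannot be told apart.

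Ranked by median level among the 338 read profiles, miR-141 was number 10 for gills, 25 for skin and 85 for muscle. It took a median of 2.81% of the reads in gills, 0.39% in skin and 0.00496% in muscle when each profile was counted once.

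The members of the other seed group followed the same order at lower levels. miR-200b had 112, 450 and 727 CPM in gills, 43.6, 113 and 246 in skin, and 9.23, 14.4 and 24.6 in muscle. Gills and skin overlapped, muscle lay below both, and gills exceeded skin in 14 of 14 fish. The log2 difference of miR-200b was 1.90 ± 0.24 for gills minus skin (edgeR adjusted p = 4.68e-09), 4.74 ± 0.28 for gills minus muscle and 2.84 ± 0.25 for skin minus muscle.

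miR-200c, encoded beside miR-141 in mammalian genomes, had 39.2, 166 and 275 CPM in gills, 17.4, 38.1 and 93.1 in skin, and 2.87, 5.07 and 8.84 in muscle. Gills again exceeded skin in 14 of 14 fish although the ranges overlapped, and muscle overlapped neither. Its log2 difference was 1.99 ± 0.24 for gills minus skin (edgeR adjusted p = 1.72e-09), 4.79 ± 0.28 for gills minus muscle and 2.80 ± 0.26 for skin minus muscle.

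miR-429, encoded beside miR-200a and miR-200b in vertebrate genomes, was represented by miR-429b and miR-429a. The miR-429b level is that of the tilapia entry. The channel catfish entry of miR-429b had medians of 9.05% (gills), 5.35% (skin) and 7.69% (muscle) of its reads. miR-429b had 54.3, 105 and 173 CPM in gills, 13.3, 38.8 and 94.3 in skin, and 1.32, 2.69 and 6.04 in muscle. Gills exceeded skin in 14 of 14 fish, and both lay above every muscle library. The log2 difference of miR-429b was 1.22 ± 0.23 for gills minus skin (edgeR adjusted p = 1.75e-05), 5.14 ± 0.28 for gills minus muscle and 3.92 ± 0.27 for skin minus muscle. miR-429a had 31.1, 70.8 and 163 CPM in gills, 10.9, 31.9 and 85.5 in skin, and 0.99, 2.22 and 5.28 in muscle. It was higher in gills than in skin in 12 of 14 fish. Its gills minus skin log2 difference was 1.05 ± 0.27 (edgeR adjusted p = 0.000811), and in winter libraries alone it was 0.95 with an adjusted p of 0.067. Against muscle, miR-429a differed by 5.01 ± 0.32 in gills and 3.96 ± 0.31 in skin on the log2 scale.

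**Figure D1:**
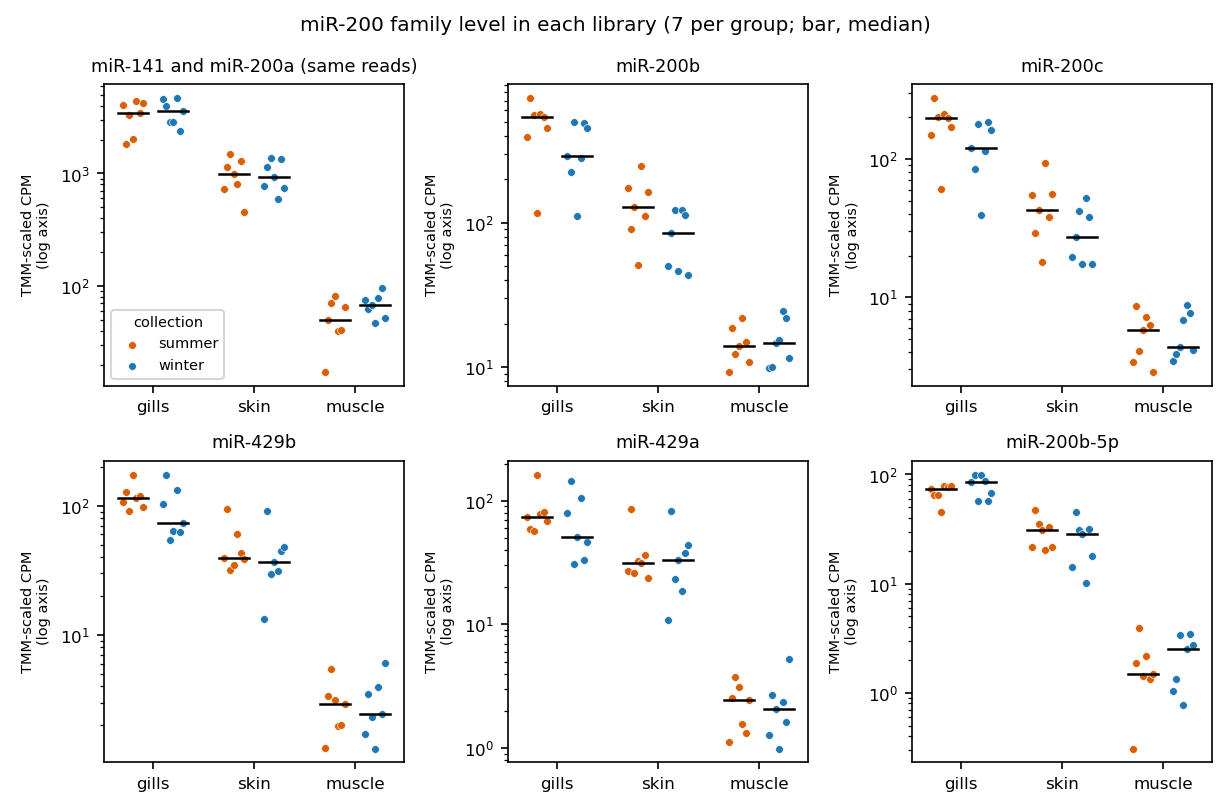
Level of 6 miR-200 family read profiles in each of 42 libraries, in TMM-scaled CPM on a log axis, by tissue (gills, skin, muscle) and collection (summer, winter); each point is a library and each bar the median of 7. All 6 profiles have their highest median in gills and their lowest in muscle, and the summer and winter points overlap in every tissue.

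All 10 names of the 6 abundant profiles were called higher in gills than in skin, in gills than in muscle and in skin than in muscle. Over all names tested, 28.8% were called higher in gills than in skin, 39% higher in gills than in muscle and 34.7% higher in skin than in muscle, with 25.7%, 37.5% and 32.4% called lower and 54.5%, 76.6% and 67% called in either direction. That near balance holds under TMM scaling: with libraries scaled by totals alone, 69.7% of all names were called higher and 13.7% lower in gills minus skin, 84.2% and 9.14% in gills minus muscle, and 82.5% and 8.19% in skin minus muscle. With the scarce strands counted in, 13 of 14 names were called between gills and skin (9 of 10 profiles) and 14 of 14 in each comparison with muscle, as a description only. The scarce strands had few or no muscle reads, and miR-200a-5p and miR-429-5p also few skin reads, so they passed the filter on low counts through the tissue where they are high. For miR-200a-5p, with 0 reads in every muscle library, no level above muscle can be read, since its mean level in gills was 0.88 times, and in skin 0.29 times, the level of 3 counts in each muscle library. The median log2 differences over the 14 names are also a description only, since names of the same reads count more than once. The median was 1.68 for gills minus skin, against 0.00 over all names tested. It was 4.90 for gills minus muscle, or 4.77 with miR-200a-5p put at the floor, against 0.10 over all names. It was 3.61 for skin minus muscle, or 3.23 with miR-200a-5p at the floor, against 0.11. Of the scarce strands only miR-200a-5p was put at the floor. Over the 10 names of the 6 abundant profiles, the differences lay between 1.05 and 1.99 for gills minus skin. They lay between 4.74 and 5.85 for gills minus muscle and between 2.80 and 4.05 for skin minus muscle.

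The name that was not called between gills and skin was miR-141-5p, the scarce partner strand of miR-141. It had 0.54, 0.76 and 1.15 CPM in gills and 0.099, 0.52 and 1.11 in skin, and the ranges overlapped. Its log2 difference was 0.40 ± 0.25 for gills minus skin (95% interval -0.12 to 0.91, edgeR adjusted p = 0.195). In muscle it had 0 reads in 9 of 14 libraries and at most 0.15 CPM. With libraries scaled by their totals alone, the gills minus skin difference was 1.45 (edgeR adjusted p = 9.97e-05), where the median over all names moved to 1.07.

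miR-200b-5p was the 1 abundant 5p strand, and its gill median was close to that of miR-429a. It had 45.4, 75.4 and 99.5 CPM in gills, 10.1, 29.5 and 46.8 in skin, and 0.31, 1.69 and 3.92 in muscle. Its log2 difference was 1.42 ± 0.23 for gills minus skin (edgeR adjusted p = 6.16e-07), and gills exceeded skin in 14 of 14 fish. miR-200a-2-5p, a salmon name, differed by 1.55 ± 0.28 for gills minus skin, where gills exceeded skin in 13 of 14 fish. miR-429-5p, the partner strand of miR-429, had 430 reads in all, with a median of 10.5 reads in gills and 2.5 in skin, and 0 reads in 11 of 14 muscle libraries. miR-200a-5p, with 310 reads in all, had a median of 3.5 reads in gills, 2.5 in skin and 0 in muscle. Because both passed the filter through gill reads, their differences between tissues are a description only, and their calls are not read as tests.

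**Figure D2:**
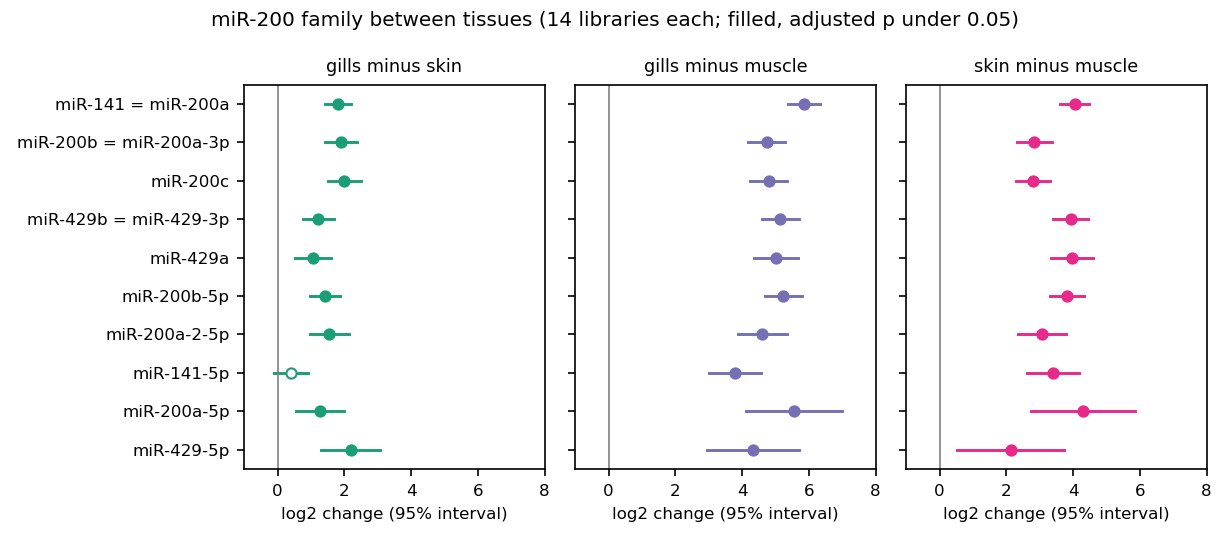
Log2 differences of the 10 family read profiles between tissues, gills minus skin, gills minus muscle and skin minus muscle, with 95% intervals from edgeR over 14 libraries per tissue; filled points have an adjusted p under 0.05. miR-141-5p between gills and skin (0.40) is the open point. The values of miR-200a-5p and miR-429-5p rest on few or no reads outside gills. Their filled points are shown as a description and not read as tests. That also holds for the points of miR-141-5p and miR-200a-2-5p against muscle, where both had few reads.

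The dissections differed in other cell-type markers beside these levels. All 3 skeletal muscle markers (miR-133a, miR-206 and miR-499) had reads in each tissue. Their summed level ranged between 88.5 and 176 CPM in gills, between 1895 and 4995 in skin, and between 7551 and 24644 in muscle. The keratinocyte markers miR-203 and miR-205 gave sums between 1986 and 9122 in gills, 3229 and 7728 in skin, and 137 and 492 in muscle. The red blood cell pair miR-144 and miR-451 gave at most 1235 in gills, 181 in skin and 262 in muscle, with medians of 925, 83.7 and 150. The 4 white blood cell markers gave sums between 777 and 1229 in gills, 90.0 and 342 in skin, and 17.3 and 240 in muscle, and 1 of the 4 had no read in muscle. Their medians of 1039, 173 and 41.4 followed the same order as the family. The smooth muscle markers miR-143 and miR-145-5p also followed that order. Their sums lay between 1615 and 13688 CPM in gills (median 8303) and between 1020 and 5132 in skin (median 3688). In muscle they lay between 820 and 3437 (median 1923). The 1 pigment cell marker found of 2, miR-204, had medians of 151 in gills, 2800 in skin and 297 in muscle. The part of these cell types in the tissue differences of the family was not tested. By these lists muscle had the most skeletal muscle miRNA, and skin and gills had the most keratinocyte miRNA.

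Over the libraries of a tissue, the family did not vary as one unit, and the part of the batch number in this was not tested. miR-200c held close to miR-200b: their log2 ratio had SDs over 14 libraries of 0.14 (gills), 0.13 (skin) and 0.21 (muscle), around a median of 0.378, 0.344 and 0.363 miR-200c reads per miR-200b read. miR-429a and miR-429b also held together, with SDs of 0.27, 0.27 and 0.18. miR-141 and miR-200b did not: their log2 ratio had SDs of 0.92 (gills), 0.96 (skin) and 0.66 (muscle). Within the single name miR-200b, the Tetraodon entry held to the tilapia entry at SDs of 0.081 (gills), 0.067 (skin) and 0.098 (muscle). Its medians were 0.767, 0.790 and 0.783 reads per read of the tilapia entry. Whether miR-200c and miR-200b, or miR-429a and miR-429b, took the same reads was not tested.

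In reads, miR-141 per read of miR-200b was 2.50, 8.68 and 25.5 in gills (lowest, median and highest library), 2.77, 11.7 and 20.1 in skin, and 1.84, 4.45 and 7.65 in muscle. The lowest gill library was summer 2 and the highest was winter 4. In each gill and skin group, the library with batch number 4 was the highest. Its ratios were 17.4 (gills summer), 25.5 (gills winter), 19.6 (skin summer) and 20.1 (skin winter). Not every number repeated: number 2 had 2.50 in summer gills and 17.7 in winter gills. The gills minus skin difference in log2 ratio averaged -0.06 ± 1.26 (SD over 14 fish), with the ratio higher in gills in 7 of 14 fish. It averaged 1.23 ± 1.00 for gills minus muscle and 1.29 ± 0.92 for skin minus muscle, with 13 of 14 fish higher in each. Gills and skin spread over much the same range. These are ratios of reads within a library, given as a description.

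**Figure D3:**
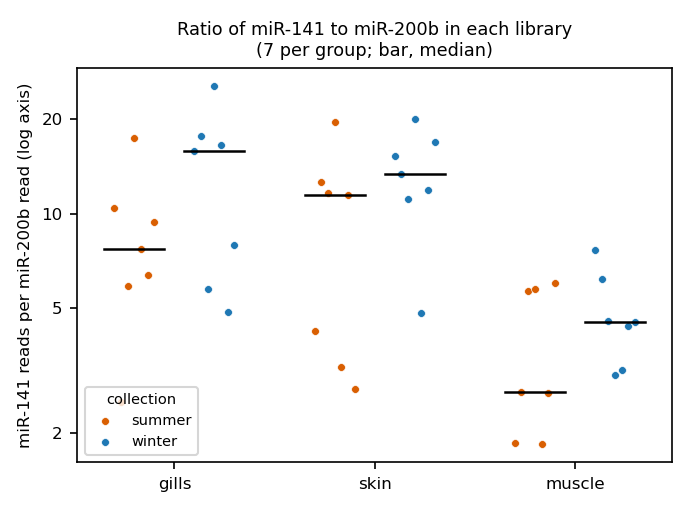
Reads of miR-141 per read of miR-200b in each library, on a log axis, by tissue and collection, with the median of 7 as a bar. The ratio spans 2.50 to 25.5 in gills and 2.77 to 20.1 in skin, and 1.84 to 7.65 in muscle.

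In gills and skin the entries of miR-200b-5p split in the same way. The salmon entry of miR-200b-5p, with 45841 reads against 3926 for the zebrafish entry of the same name, held to miR-141 (SD of the log2 ratio 0.32 in gills and 0.42 in skin) more closely than to miR-200b (0.94 and 1.00). The zebrafish entry held to miR-200b, with SDs of 0.45 in gills and 0.49 in skin, more closely than to miR-141 (0.62 and 0.68). In muscle, with few reads, the split was not seen: the salmon entry had SDs of 0.67 to miR-141 and 0.77 to miR-200b, and the zebrafish entry 0.92 and 0.97. Since the higher entry was kept for each name, the level of miR-200b-5p above is that of the salmon entry. The salmon name miR-200a-2-5p, with 3911 reads, was instead within 7 reads of the zebrafish miR-200b-5p entry in every library. The zebrafish and cod entries of miR-200b-5p were identical in 34 of 42 libraries, so it was the salmon entry that followed other reads.

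Among names outside the family, those most like miR-141 over the 42 libraries, by Pearson's r of log2(CPM + 1), were miR-203b-3p (0.97), miR-731 (0.94), miR-462 (0.94), miR-203b-5p (0.94) and miR-205 (0.92), of 261 candidates. miR-203 is known for keratinocyte differentiation and miR-205 for epithelial progenitor cells, while miR-462 and miR-731 are clustered teleost miRNAs. In gills, skin and muscle, miR-203b-3p had medians of 442, 222 and 18.8 CPM. Those r values are set mostly by the differences between the 3 tissues. With each group's mean taken off, the closest names were miR-143 (0.67), a smooth muscle miRNA, miR-205 (0.65), miR-92a (0.62), miR-92 (0.62) and miR-460 (0.58). On that scale miR-141 stood at 0.08 with miR-200b, 0.01 with miR-200c, 0.28 with miR-429b and 0.35 with miR-429a, but 0.67 with miR-200b-5p. miR-200b with miR-200c stood at 0.97, and whether these names took the same reads was not tested. Deviations from group means also went with the batch number, at a median correlation of 0.63 in gills and 0.71 in skin. The part of the batch number in these r values was not tested.

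Other epithelial miRNAs were set beside the family, from a list of 13 of which 12 were found by name and 10 had enough reads to be tested. In gills minus skin, 3 were called higher: miR-375, known from endocrine and secretory cells (log2 difference 3.35 ± 0.22), miR-449a-5p, known from multiciliated cells (2.73 ± 0.45), and miR-203 (1.19 ± 0.25). 1 was called lower, miR-183, a sensory-cell miRNA, at -0.73 ± 0.26, and that difference was 0.33 and not called when libraries were scaled by totals alone. The other 6 were not called. In gills minus muscle 5 were called higher, among them miR-205 at 5.11 ± 0.27 and miR-375 at 5.81 ± 0.25, and 3 were called lower, miR-182, miR-183 and miR-96, all of which turned positive with totals alone. In skin minus muscle 4 were called higher and 3 lower, the same 3, of which miR-182 and miR-96 turned positive with totals alone and miR-183 was at -0.09. With totals alone 9 of the 10 were called higher and 0 lower in each tissue pair. miR-203 and miR-205 are in this list and are also the keratinocyte markers. Called directions in this list were thus mixed under TMM scaling but not with totals alone, with no test against the family.

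Between collections, no family name that passed the filter was called in any tissue; in gills that leaves out miR-200a-5p. In gills 13 names were tested and 0 were called, with 0 at an unadjusted p under 0.05, where 0.217% of all names were called. In skin 12 were tested and 0 were called, with 3 at an unadjusted p under 0.05, the 3 names of the miR-200b reads, where 0.629% of all names were called. In muscle 10 were tested and 0 were called, with 2 at an unadjusted p under 0.05, miR-141 and miR-200a, where 13.8% were called. DESeq2 also called 0 family names in each tissue. With the batch number as a block 0 were called, but 4 (gills), 6 (skin) and 2 (muscle) had an unadjusted p under 0.05. Over all names tested in those block fits, 42 of 460, 81 of 477 and 124 of 427 did. Without the 2 shallowest gill libraries 0 family names were called in gills, and 4 had an unadjusted p under 0.05, where 32 of 467 names did.

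The intervals still allowed changes of some size. miR-141 had 1821, 3467 and 4384 CPM in summer gills and 2375, 3565 and 4670 in winter gills, and the ranges overlapped. Its summer minus winter log2 difference in gills was -0.19 ± 0.26 (95% interval -0.74 to 0.36; edgeR adjusted p = 0.998). In skin, miR-141 had 454, 996 and 1491 CPM in summer and 592, 926 and 1364 in winter, a log2 difference of 0.02 ± 0.28 (95% interval -0.58 to 0.62). In muscle it had 17.1, 50.4 and 81.0 CPM in summer and 47.4, 67.2 and 95.4 in winter. The muscle log2 difference was -0.58 ± 0.25 (95% interval -1.10 to -0.07; edgeR adjusted p = 0.136), and -1.03 with libraries scaled by totals alone (edgeR adjusted p = 0.0470), where 3.98% of all names were called higher and 17.6% lower. Summer and winter ranges of miR-141 overlapped in all 3 tissues.

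Of the family names tested in skin, those of the miR-200b reads had the largest seasonal difference, at 0.76 ± 0.35 (95% interval 0.02 to 1.49; edgeR adjusted p = 0.445). It had 50.9, 128 and 246 CPM in summer skin and 43.6, 84.9 and 123 in winter skin, which overlapped. In gills miR-200b had 117, 542 and 727 CPM in summer and 112, 287 and 496 in winter, a log2 difference of 0.41 ± 0.31 (95% interval -0.25 to 1.07). miR-200c differed by 0.42 ± 0.28 in gills and 0.67 ± 0.35 in skin (edgeR adjusted p = 0.832 and 0.593). miR-429b differed by 0.20 ± 0.30 in gills and 0.28 ± 0.33 in skin, and miR-429a by 0.12 ± 0.41 and 0.13 ± 0.38.

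**Figure D4:**
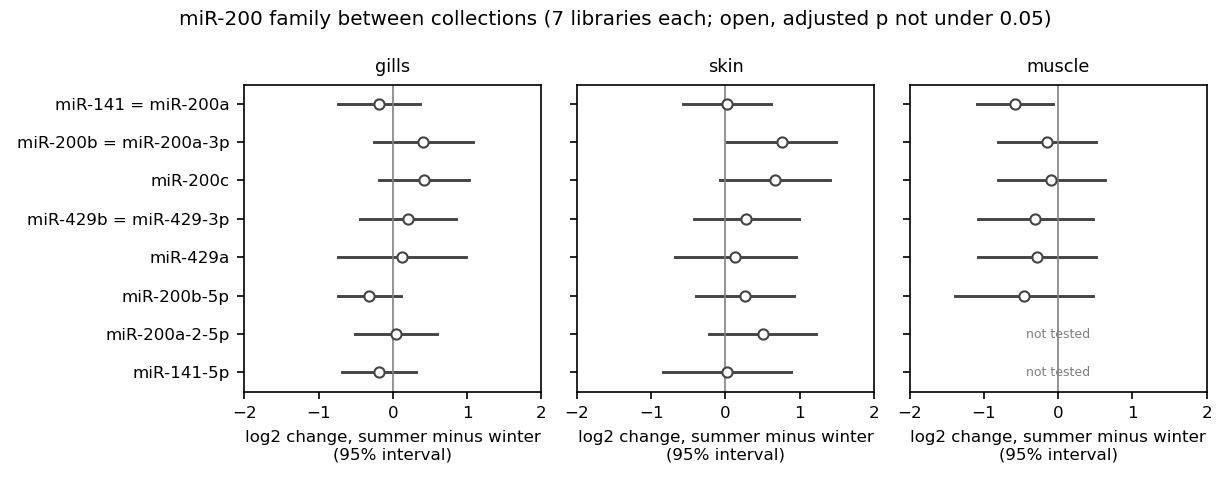
Summer minus winter log2 difference with 95% interval of 8 family read profiles in gills, skin and muscle, from edgeR fits of 7 against 7 libraries; open points have an adjusted p that is not under 0.05. Every interval but those of miR-141 in muscle and miR-200b in skin includes 0, and 2 profiles were not tested in muscle.

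Whether the seasonal difference varied between tissues was tested as an interaction, and 0 of the 14 family names were called in each of the 3 tissue pairs, where 0.762%, 1.9% and 2.29% of all names were called for gills minus skin, gills minus muscle and skin minus muscle. At an unadjusted p under 0.05 the numbers of family names were 1 (miR-200a-5p), 0 and 0. With libraries scaled by totals alone, 6 family names were called in the skin minus muscle interaction, where 16.8% of all names were called higher and 0.952% lower. The ratio of miR-141 to miR-200b reads, as a description, had medians of 7.71 in summer gills and 15.8 in winter gills, 11.5 in summer skin and 13.4 in winter skin, and 2.71 in summer muscle and 4.52 in winter muscle.

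The scarce strand miR-200a-5p stood apart between collections in gills. Its 7 summer gill libraries held 26, 6, 50, 0, 66, 59 and 49 reads, and its 7 winter gill libraries held 1, 0, 4, 3, 3, 0 and 1 reads. In 6 of the 7 summer libraries the count exceeded every winter count, and the summer library with 0 reads was the shallowest of all. Because miR-200a itself also varies with depth, the strand was taken per 1000000 reads of miR-200a: 197 over all summer gill reads, 256 of 1301016, and 25.9 over winter gill reads, 12 of 463594. The miR-200a counts equal those of miR-141 in 42 of 42 libraries, so this denominator is not a count of miR-200a alone.

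The 7 against 7 comparison of log2((miR-200a-5p + 1) / (miR-200a + 1)) includes summer 4, which had 0 reads of miR-200a-5p among 2243 of miR-200a and still has the highest ratio of all gill libraries, at -11.13, from the added 1 alone. Without the 2 shallowest gill libraries, summer 4 and winter 2, the summer minus winter difference was 2.30. Its two-sided exact permutation p was 0.00216, the smallest that 6 against 6 can give, and 0.00433 after adjustment over 6 strand comparisons. With all 14 libraries the difference was 2.38 (exact p = 0.000583, the smallest that 7 against 7 can give, adjusted 0.00117). With the batch number as a block it was also 2.38 (exact p = 0.0156, the smallest that 7 pairs can give, adjusted 0.0469). Both of these count summer 4 as support. Each adjustment takes in comparisons with or within muscle, where every library had 0 reads of miR-200a-5p. Those muscle p-values come from the added 1 and the miR-200a reads alone, so all adjusted strand p-values given here are a description only. At like numbers of miR-200a reads, summer 1 had 26 reads of miR-200a-5p in 145601 of miR-200a, and winter 5 had 3 in 144538. Winter 3, with 12778743 counts over all names against 12755013 in summer 1, had 4 in 133937. The 26 reads were of the zebrafish entry of miR-200a-5p, of which winter 5 had 1 and winter 3 had 4. In the edgeR fit of the gill season, miR-200a-5p was below the filter on low counts. Without the filter its log2 difference was 2.83 ± 0.44 (edgeR adjusted p = 0.0015), where 6 of 653 names were called. Only 5 libraries, all of summer gills, had at least 10 reads of it. That value is thus a description only and its call is not read as a test.

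The difference depended on which species entry was counted. The zebrafish entry of miR-200a-5p had 256 reads in summer gills and 6 in winter gills, while the cod entry had 14 and 12. Per 1000000 reads of miR-200a, summed over gill libraries, the zebrafish entry stood at 197 in summer and 12.9 in winter. The cod entry, with few reads, went the other way on that scale, at 10.8 in summer and 25.9 in winter. With the cod entry alone the gill difference was -0.69 (exact permutation, adjusted p = 0.487). That value includes summer 4, which had 0 reads of either entry, so its ratio came from the added 1 alone. The single entries were not tested without that library. The zebrafish entry was the higher in every summer gill library with reads, and the cod entry was equal or higher in every winter gill library, so the count of the name follows different entries in the seasons. What sets the entries apart was not tested.

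In skin the summer libraries held 3, 7, 5, 8, 3, 6 and 1 reads of miR-200a-5p and the winter libraries 1, 2, 0, 1, 1, 3 and 1. The summed rate was 158 per 1000000 miR-200a reads in summer and 61.6 in winter, and the libraries overlapped. The log2 difference was 0.80, with an exact permutation p of 0.0629 (adjusted 0.0944), and 0.80 with the batch number as a block (exact p = 0.0312, adjusted 0.0469). In muscle miR-200a-5p had 0 reads among 3303 of miR-200a in summer and 4512 in winter, which allows up to 384 per 1000000 miR-200a reads over all muscle libraries, and no difference was detectable at this depth. Over the seasons, gills minus skin gave -0.58 (exact permutation p = 0.125).

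Of the other partner strand entries in gills, 1 had a higher median rate in summer and 3 did not. Among them miR-200b-5p stands with both its zebrafish and its salmon entry, on different denominators. miR-429-5p (salmon entry) was a median of 0.63% of miR-429b reads in summer gills and 0.28% in winter gills, and the libraries overlapped, with 0 to 1.04% in summer and 0.14 to 2.85% in winter. Summed over libraries, its rate was instead lower in summer, with 270 reads against 36938 of miR-429b, than in winter, with 108 against 11213. miR-141-5p had a median of 207 reads per 1000000 miR-141 reads in summer gills and 225 in winter gills, on the same denominator as miR-200a-5p. The zebrafish miR-200b-5p entry was 1.33% of miR-200b reads in summer gills and 1.70% in winter gills, and the salmon entry was 1.97% of miR-141 reads in summer and 2.03% in winter. That salmon rate is on miR-141, which the entry held to in these same libraries, and not on miR-200b. On miR-200b reads the salmon entry ran from 8.86% in gills summer 2 to 87.8% in gills winter 4. Its summer and winter medians on that scale are not given. Apart from the ranges and sums, these are medians over 7 libraries, and none were tested.

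**Figure D5:**
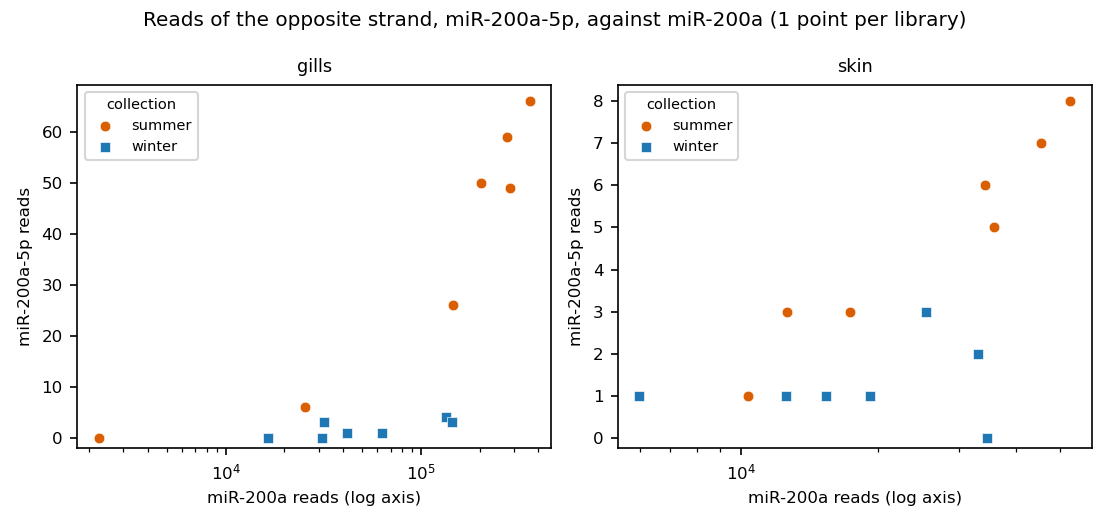
Reads of miR-200a-5p, the scarce strand, against reads of miR-200a on a log axis, for each gill library (left) and skin library (right), by collection. In gills the summer libraries reach 66 reads and the winter libraries 4, with winter 5 at 3 reads in 144538 and summer 1 at 26 in 145601, and in skin the points overlap.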

How the data were processed

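Small RNA libraries of 3 tissues from 14 fish were cut from gels, made with the TruSeq Small RNA kit and sequenced on a NextSeq 500, with read 1 used, per the labels' protocols. The deposited tables hold read counts per mature miRNA and precursor, per the file headers; the CPM values deposited beside them were not used in tests. The miRNA reference, aligner and filters: not given in the sources used here. Mature sequences are not analysed here. Species prefixes were removed, which left 1342 names, and each name took its highest entry per library.

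Library depth, as the count summed over names, lay between 598084 and 27067509 (gills), 11091382 and 36093916 (skin), and 18314928 and 57710548 (muscle); gills summer 4 and gills winter 2 were the shallowest. Among 126 pairs of libraries within groups, 0 had identical counts. The limit of 3 counts that 0 reads allow covers counting error only, as there were no molecular identifiers.

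The deposited counts went into edgeR 4.0.16 (R 4.3.3) with TMM scaling and its filter on low counts (minimum count 10, minimum total 15). A quasi-likelihood p adjusted by Benjamini-Hochberg and under 0.05 was called. The tissue fit used all 42 libraries and each seasonal fit the 14 libraries of 1 tissue. Strand ratios used two-sided exact permutation tests (scipy 1.17.1). On simulated data the fits recovered known changes. Every simulated library had the same base profile, with changes added to some names in gills. The scaling between tissues of unlike profile was thus not tested. Alternatives were DESeq2 1.42.0, totals-only scaling, no filter, 1 name per profile, single seasons, no shallow libraries, and fish or batch number as block. The batch label gives 1 number to a fish of each collection; deviations of same-numbered libraries had a median correlation of 0.63 in gills, 0.71 in skin and 0.09 in muscle. The members and lists were chosen with earlier results of these data known. Named genes were the family, the 5 names most like miR-141 by correlation, and a fixed list of epithelial miRNAs.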

Additional observations from a re-analysis of the deposited data

Results flagged for a closer look

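In 13 of 58 combinations of a family read profile and a group of 7 libraries, 1 library stood far from the others. The cutoff gives about 1 in 20 for independent, normally distributed values. These profiles share libraries and the scarce strands are near 0 reads, so 13 of 58 cannot be read against that rate. Values are log2(TMM CPM + 1). In gills summer 4, the shallowest library, 6 profiles stood apart. It was low in miR-200b at 6.88 (others 8.62 to 9.51), miR-200c at 5.95 (7.24 to 8.11), miR-200b-5p at 5.54 (6.03 to 6.31), miR-200a-2-5p at 0.93 (others from 2.73 up) and miR-200a-5p at 0, and high in miR-429a at 7.35 (5.86 to 6.35). miR-429a was also high in skin summer 2 at 6.43 (others 4.64 to 5.23). Skin winter 2, a different fish with the same batch number, was likewise the highest of its group. Without the log, miR-429a had 85.5 CPM in skin summer 2 and 81.9 CPM in skin winter 2.

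The other 6 were in scarce strands: miR-200a-2-5p at 0.85 in muscle summer 2 and 1.21 in skin summer 4, miR-200a-5p at 0.34 in gills winter 4, and miR-429-5p at 0.14 in muscle summer 5, 0.49 in muscle winter 6 and 0.60 in skin winter 3.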

How the results depend on the processing

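For single family names, 753 of 764 values kept their direction and side of the threshold over the alternatives run, and 79 of 85 counts and strand ratios stayed within their limits. Totals-only scaling moved the median over all names to 1.07 for gills minus skin, 3.49 for gills minus muscle and 2.39 for skin minus muscle, where miR-141 stood at 2.86, 9.34 and 6.49; the cause was not tested. Under it, 2 family names, miR-141 and miR-200a, were called lower in summer muscle (-1.03, adjusted p = 0.0470), and 6 names were called in the skin minus muscle interaction. With no filter on low counts 1 name, miR-200a-5p, was called in gills between seasons, since the filter had left it out. That call is a description only. In winter libraries alone miR-429a was not called between gills and skin. miR-429-5p, given as a description only, was at 1.53 between skin and muscle and not called.

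For the strand ratio between seasons, the cod entry alone reversed the gill difference to -0.69 (exact permutation, adjusted p = 0.487), an alternative added after seeing the data, as was the zebrafish entry alone, which gave 2.96. In skin a pseudocount of 0.5 gave 1.07 (adjusted 0.0323), and the batch number as a block gave 0.80 (adjusted 0.0469), against 0.0944 without either. The fish and batch number blocks changed no other call. A minimum of 10 reads of miR-200a-5p left 5 libraries and gave no value. Depth limits the scarce strands, above all in muscle.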
